A study of Mus musculus with 13 samples.

Results

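The mitochondrial ribosomal protein genes were taken as all protein-coding genes of the GENCODE vM1 annotation (mouse build mm9) whose symbol starts with Mrpl or Mrps followed by a digit. This gave 77 of 22367 protein-coding genes, 47 named for the large subunit of the mitochondrial ribosome (Mrpl) and 30 for the small subunit (Mrps). They lie on 17 chromosomes, with 10 on chromosome 11 and 9 on chromosome 17. One of them, Mrps36-ps1, is typed as protein-coding although its name marks it as a pseudogene. The promoter of a gene was the window of 1 kb on either side of its start site, and a gene was counted for a list when at least 1 bp of a peak lay in that window. The windows of 1 pair overlapped, those of the neighbours Mrps11 and Mrpl46, whose starts are 412 bp apart.

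Peaks called from ChIP-seq of wild-type mouse embryonic stem cells (mESCs), male cells of the 129/1 XY line grown in serum with LIF, were given in 5 lists. Endogenous AEBP2 and H3K27me3 had 2 replicates each. FS2-AEBP2, which is AEBP2 with a Flag and StrepII tag at its N terminus, had 1 sample. The ChIP for the tagged protein used another protocol, with beads blocked with serum albumin and yeast tRNA. For mass spectrometry the study expressed the tagged protein from a pCAG plasmid in E14 cells. Its main ChIP methods name neither the plasmid nor the cell line, and the labels give the same line for all 5 samples. The label of the histone antibody names H3K27 without its methylation state, taken here as H3K27me3 from the methods of the study. The replicate numbers of the H3K27me3 lists follow the sample records, but the lists themselves appear to be numbered the other way round, so it is uncertain which of them is replicate 1. The 8 samples of SUZ12, input or mutant cells were not analysed here.

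Mitochondria keep their own ribosomes, which translate the few proteins that mitochondrial DNA encodes, all of them subunits of the oxidative phosphorylation complexes. The RNA of these ribosomes is made in the mitochondrion, but every one of their proteins is encoded in the nucleus and imported. AEBP2 is an accessory subunit of PRC2, the Polycomb complex that methylates H3K27, and H3K27me3 is typically found at silent developmental genes, whereas the genes of the mitochondrial ribosome are housekeeping genes.

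The lists held between 2877 peaks (AEBP2 replicate 1) and 14112 peaks (H3K27me3 replicate 1) on the chromosomes used, and AEBP2 replicate 2 held 6779. Peaks were called in each sample on its own. The lists give no read counts, so the depth is unknown, and a gene without a peak may still hold signal under the authors' threshold. Among 7 pluripotency genes looked up as a check of the cell type, Pou5f1, Nanog, Sox2, Zfp42, Esrrb and Tdgf1 had no peak in any list, while Klf4 had a peak of H3K27me3 replicate 1 and of FS2-AEBP2. Peak lists hold no expression, so this check is a weak one. Most promoters also lack these peaks. Over all protein-coding promoters H3K27me3 was called in either replicate at 19.8% and AEBP2 at 22.9%.

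Endogenous AEBP2 was called at 24 of the 77 promoters, H3K27me3 at 1 and FS2-AEBP2 at none. The AEBP2 share is 31.2% (95% Wilson interval 21.9 to 42.2%), where 22.9% of all protein-coding promoters had a peak of either replicate, a value inside the interval. AEBP2 was called in both replicates at 5 genes, Mrps15, Mrps23, Mrpl32, Mrpl45 and Mrpl9. The bases between the upstream end of the stretch shared by both of their peaks and the start site are printed here in mm9, on the strand of the gene, because these are the promoters at which the AEBP2 calls were repeated. For Mrps23 and Mrpl32 only the 200 bases next to the start are shown. Each stretch ends at the base before the start site and holds no annotated exon. Capitals mark exact matches, on either strand, to CCGGAAG, GCGCATGC, AAGATGGCG, CTCGCGAG or GGGCGGG, which may overlap each other and are described with their frequencies after the peaks.
Mrps15, chr4:125724055-125724168, plus strand: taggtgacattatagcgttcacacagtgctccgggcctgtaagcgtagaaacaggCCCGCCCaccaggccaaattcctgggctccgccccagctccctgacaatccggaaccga
Mrps23, chr11:88017690-88017889, plus strand: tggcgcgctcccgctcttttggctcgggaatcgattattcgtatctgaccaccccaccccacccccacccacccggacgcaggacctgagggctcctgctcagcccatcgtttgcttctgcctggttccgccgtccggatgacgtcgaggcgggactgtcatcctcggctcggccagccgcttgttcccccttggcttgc
Mrpl32, chr13:14705305-14705504, minus strand: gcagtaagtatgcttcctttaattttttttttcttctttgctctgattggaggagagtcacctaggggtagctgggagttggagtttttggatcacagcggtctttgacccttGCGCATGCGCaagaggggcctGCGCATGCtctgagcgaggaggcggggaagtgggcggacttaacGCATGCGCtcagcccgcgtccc
Mrpl45, chr11:97176858-97177029, plus strand: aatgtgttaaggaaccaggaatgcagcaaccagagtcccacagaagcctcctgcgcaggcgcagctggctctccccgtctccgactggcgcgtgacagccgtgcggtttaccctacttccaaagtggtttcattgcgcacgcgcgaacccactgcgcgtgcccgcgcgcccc
Mrpl9, chr3:94247147-94247239, plus strand: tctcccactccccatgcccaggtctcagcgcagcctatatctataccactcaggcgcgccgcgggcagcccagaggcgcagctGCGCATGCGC

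Of the 77 genes, 6 had a peak of AEBP2 replicate 1, a share of 7.79% with a 95% Wilson interval of 3.62 to 16.0%, where 9.08% of all protein-coding promoters had one. AEBP2 replicate 2 was called at 23 genes, or 29.9% (interval 20.8 to 40.8%), against 22.3% of all promoters. Both replicates were called at 5 genes, or 6.49% (2.81 to 14.3%), against 8.44%. Each of these 3 intervals holds the share over all promoters, although that share is close to the lower end for replicate 2. The intervals cover counting error over genes and not the difference between experiments, and with at most 2 samples of a kind no test over samples was possible.

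H3K27me3 was rare at these genes. It was called in either replicate at 1 gene, Mrpl23, which is 1.3% (0.23 to 7.0%) against 19.8% of all promoters. Among genes with a CpG-island-like region, described next, it was 1 of 72 (1.39%, 0.246 to 7.46%) beside 28.6% of all 12312. All 23 genes with AEBP2 replicate 2 were without H3K27me3, and so were the 5 with both AEBP2 replicates. Over all promoters, AEBP2 replicate 2 without H3K27me3 was found at 11.1%, and AEBP2 in both replicates without H3K27me3 at 2.40%. The 2487 promoters with AEBP2 replicate 2 and no H3K27me3 stood beside 2496 with both, an almost even split. In the other AEBP2 lists most promoters carried the mark, since 615 of 2032 with replicate 1 were without H3K27me3, and 537 with both AEBP2 replicates were without it beside 1351 with it. None of the 24 mitochondrial ribosomal protein genes with an AEBP2 peak had H3K27me3 within 1 kb of the start. Mrpl23 was the only gene of the whole set with the mark, so this absence says little about the AEBP2 genes in particular. It also depends on the window, since with 2.5 kb Mrps23 and Mrpl34 had both AEBP2 replicate 2 and H3K27me3.

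Much of this picture was shared with other promoters of the same kind. A CpG-island-like region (windows of 500 bp, joined where they touch, that reach 55% GC and an observed to expected ratio of CpG of 0.65) lay in the promoter window of 72 of the 77 genes, and 71 of these had no H3K27me3. Over the 8796 protein-coding promoters with such a region and without H3K27me3, AEBP2 replicate 1 was called at 6.86%, replicate 2 at 27.6% and both at 6.0%. The corresponding shares of the 71 genes were 8.45% (3.93 to 17.2%), 32.4% (22.7 to 43.9%) and 7.04% (3.05 to 15.4%). These lie near the shares of the comparison promoters, so the frequency of AEBP2 peaks is not a result about the mitochondrial ribosomal protein genes as such.

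**Figure D1:**
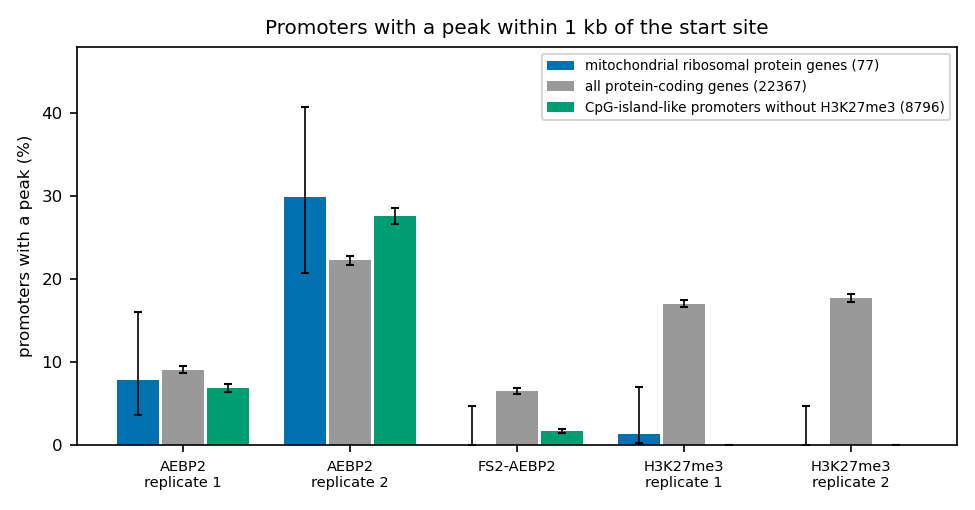
Share of promoters with a peak within 1 kb of the start site (%, vertical axis) in each of the 5 lists, for the 77 mitochondrial ribosomal protein genes, all 22367 protein-coding genes and the 8796 promoters with a CpG-island-like region and no H3K27me3, which have none in the H3K27me3 lists by construction. Bars are shares and lines their 95% Wilson intervals. The AEBP2 shares of the 77 genes, 7.79% and 29.9%, stand near the 6.86% and 27.6% of the last group, and their H3K27me3 share of 1.3% in replicate 1 and 0 in replicate 2 is below that of all genes.

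Both AEBP2 lists agreed on these genes about as often as on others. Of the 6 genes with a replicate 1 peak, 5 were also in replicate 2 (83.3%), and of the 23 genes in replicate 2 the same 5 were in replicate 1 (21.7%). For all promoters without H3K27me3, 537 were in both lists, which is 87.3% of the 615 in replicate 1 and 21.6% of the 2487 in replicate 2. Most replicate 2 calls at these genes therefore had no counterpart in the shorter list of replicate 1.

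The highest-scoring of the peaks called in both replicates was that of Mrps15, a small-subunit protein with a bacterial counterpart. Its peak had a score of 43 in replicate 1 and 68 in replicate 2, which placed it at the 98.0 and 99.2 rank percentile of all peaks of the respective list. The scale of the score is not stated, so only ranks are compared between lists. The replicate 1 peak spanned 488 bp, from 125724055 to 125724542 on chromosome 4, and lay wholly within the 616 bp peak of replicate 2. Its centre was 129.5 bp downstream of the start site in replicate 1 and 188.5 bp downstream in replicate 2.

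Mrps23, also of the small subunit but without a bacterial counterpart, had scores of 28 and 52 (rank percentiles 96.4 and 98.5). Its peaks of 469 bp and 754 bp shared 469 bp over the start site, from 88017635 to 88018103 on chromosome 11. Mrpl32, a large-subunit protein whose precursor is processed by the m-AAA protease before it enters the ribosome, had nearly the same scores of 28 and 51 (96.4 and 98.4). Its peaks on chromosome 13 shared 392 bp, and they also covered the start of Psma2, a proteasome subunit gene transcribed in the opposite direction from 217 bp away. The centre of the replicate 1 peak was 60.0 bp upstream of the Mrpl32 start, while that of replicate 2 was 209.0 bp upstream and only 8.0 bp from the start of Psma2.

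The other genes called in both replicates ranked differently in the 2 lists. Mrpl45, which helps to hold the ribosome at the inner membrane, had a score of 6 in replicate 1 (rank percentile 42.8) and of 44 in replicate 2 (97.6), with peaks of 378 bp and 342 bp that shared 329 bp. Mrpl9, a large-subunit protein with a bacterial counterpart, had scores of 9 and 4, at the 65.1 and the 20.2 percentile, and its replicate 1 peak, from 94247147 to 94247390 on chromosome 3, lay wholly within that of replicate 2. Mrps15, Mrps23, Mrpl32 and Mrpl45 were the highest-scoring of the 23 peaks in replicate 2, and Mrpl9 was among the lowest. Mrpl28 was the only gene with a peak in replicate 1 alone, from 26260278 to 26260655 on chromosome 17, centred 1.5 bp downstream of its start. This peak had a score of 4 (21.5 percentile), and the nearest peak of replicate 2 was 9860 bp away.

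In replicate 2 alone, 18 genes had a peak. Their scores ran from 4 to 18 with a median of 7.0 (median rank percentile 48.1), against a median score of 51.0 for the 5 genes shared with replicate 1. Mrpl54, a mitochondria-specific protein, was first among them with a score of 18 (84.5 percentile), followed by Mrpl20 with 12 (72.7) and Mrpl44, a protein with an RNase III-like fold, with 10 (65.3). Mrpl17, Mrpl40 and Mrps27, the last of them a pentatricopeptide repeat protein, each had a score of 9 (60.4). A score of 7 (48.1) was given to the peaks of Mrpl14, Mrpl42, Mrps18b, Mrps35 and Mrps5. The lowest were Mrpl39 and Mrpl49 with 5 (30.2), and Mrpl12, Mrps17, Mrps30, Mrps34 and Mrps6 with 4 (20.2). The peaks in replicate 2 alone thus ran from the 20.2 to the 84.5 percentile and none reached the ranks of Mrps15, Mrps23, Mrpl32 and Mrpl45.

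The peaks were short and lay over the start sites. In replicate 2 their median length was 411 bp (166 to 1317 bp), beside 525 bp for all promoter peaks without H3K27me3 and 1740 bp for those with it. In replicate 1 the 6 peaks had a median length of 386.5 bp (at most 488 bp), beside 430 bp without and 1928 bp with H3K27me3. The lengths at the mitochondrial ribosomal protein genes were thus near those at other AEBP2 promoters without H3K27me3. Their median rank percentile in replicate 2, 48.1, was the same as for all promoter peaks without H3K27me3. In replicate 1 it was 80.8 (median score 18.5), beside 50.9 (median score 7.0) for promoter peaks without H3K27me3, with only 6 peaks that ran from the 21.5 to the 98.0 percentile.

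All 6 peaks of replicate 1 and 19 of the 23 peaks of replicate 2 covered the start site. The median distance from the centre of a peak to the start was 24.75 bp in replicate 1 and 145.5 bp in replicate 2, where 10 centres lay upstream and 13 downstream. Across all promoter peaks without H3K27me3 it was 139.5 bp and 154 bp. The 4 peaks that missed the start lay inside the gene. That of Mrpl54 was wholly intronic, that of Mrpl42 was 92.1% intronic, that of Mrpl39 was 95.3% exonic, and that of Mrps30 lay wholly in coding sequence, centred 299.5 bp downstream of the start. By its name Mrps30 was counted with the small subunit, although in structures of the ribosome its protein sits in the large one.

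**Figure D2:**
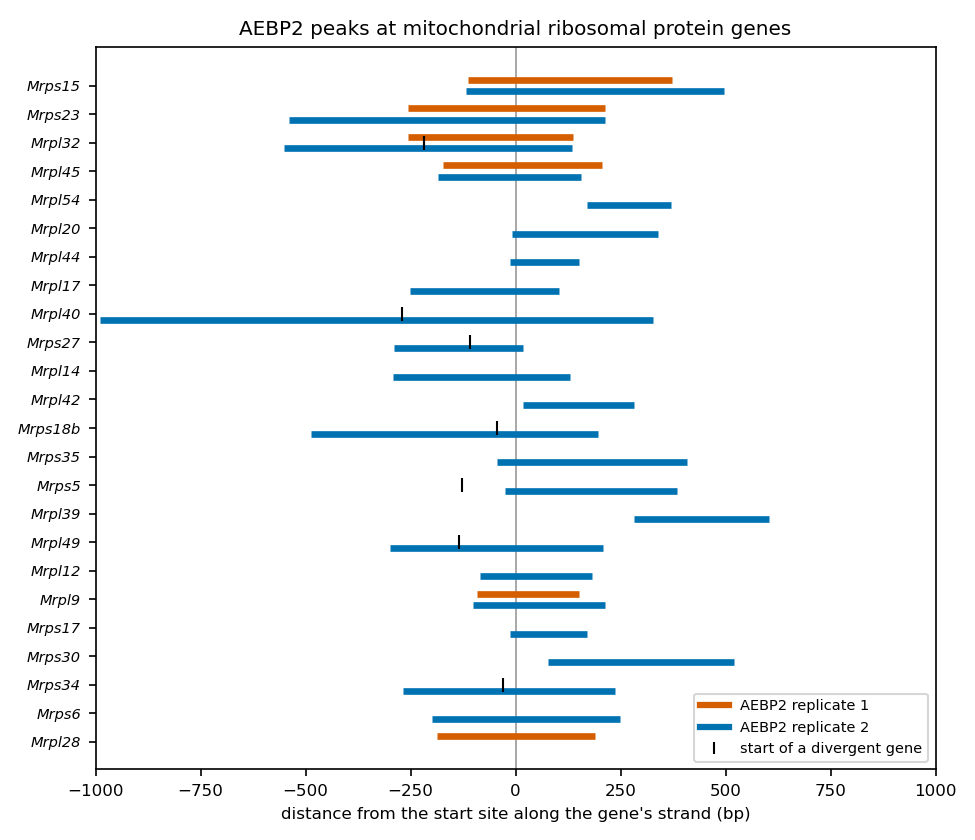
AEBP2 peaks of replicate 1 and replicate 2 at the 24 genes with a peak, drawn as bars at their distance from the start site along the strand of the gene (bp, horizontal axis), with genes in order of score in replicate 2 and Mrpl28, called in replicate 1 only, last. Black ticks mark the start of a divergent gene, and 19 of the 23 bars of replicate 2 cross the start site at 0.

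Several of these peaks lay over promoters that serve a pair of genes. A protein-coding gene started on the opposite strand within 1 kb upstream of 16 of the 77 genes (20.8%), compared with 7.15% of all protein-coding genes and 15.3% of those with a CpG-island-like region and no H3K27me3. AEBP2 replicate 2 was called at 7 of these 16 genes (43.8%, interval 23.1 to 66.8%) and at 16 of the other 61 (26.2%, 16.8 to 38.4%). The intervals overlap widely, and over all genes with a divergent partner and no H3K27me3 the share was 27.8%. The other 61 still include genes whose window overlaps that of another start, such as Mrpl44 and Mrps6. Among the 44 genes with no such overlap the share was 27.3% (16.3 to 41.8%).

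In 17 of the 23 peaks of replicate 2 the nearest start to the centre was that of the mitochondrial ribosomal protein gene, and in 6 it was that of a neighbour. These neighbours were Psma2 at Mrpl32, Wdfy1 at Mrpl44, Hira (a histone H3.3 chaperone) at Mrpl40, Ptcd2 at Mrps27, Ppp1r10 at Mrps18b and Eme2 at Mrps34. The longest peak of the set, 1317 bp from 18876533 to 18877849 on chromosome 16, covered the starts of both Mrpl40 and Hira and was centred 61.0 bp from that of Hira. In all, 8 peaks covered at least 2 starts, including that of Mrpl49 with Fau, a cytosolic ribosomal protein gene, and that of Mrps6 with Slc5a3. For these 8 the lists do not tell which gene a peak belongs to. Peaks over several starts were not counted at other promoters. The window overlapped that of another protein-coding start at 11 of the 23 genes (47.8%). This share was 27.6% for all promoters with AEBP2 replicate 2 and no H3K27me3. It was 42.9% for the 77 genes and 26.0% for promoters with a CpG-island-like region and no H3K27me3. These differences were not tested.

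The only H3K27me3 peak in a promoter window was at Mrpl23. It was called in replicate 1, from 149716717 to 149718200 on chromosome 7 (1484 bp), with a score of 5 (44.5 percentile), and ended 504 bp upstream of the start site in sequence outside any protein-coding gene. The nearest peak of replicate 2 was 24219 bp away. Mrpl23 had no AEBP2 peak, the nearest being 49255 bp away in replicate 2.

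Within 10 kb of the start, H3K27me3 was found for 6 of the 77 genes in replicate 1 (7.79%, against 23.4% of all genes) and for 3 in replicate 2 (3.9%, against 22.7%). The 3 genes near H3K27me3 in both replicates were Mrps23, Mrpl34 and Mrpl54. Upstream of Mrps23 the mark formed peaks of 4513 bp and 5733 bp that ended 2353 bp and 2075 bp before its start, so that the AEBP2 peak of Mrps23, among the highest-ranked of the set, stood next to an H3K27me3 domain without touching it. Upstream of Mrpl34, 2385 bp and 1807 bp away, the peaks lay over the neighbouring gene Abhd8. Those downstream of the Mrpl54 start, 6770 bp and 8265 bp away, lay over Matk. In replicate 1 alone, Mrpl38 had a peak 7672 bp away that covered the start of Trim65, and Mrps6 one of 286 bp at 8920 bp.

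FS2-AEBP2 was not called at any of the 77 promoters, where the Wilson interval reaches 4.75%. The share was 6.53% over all promoters and 1.67% over those with a CpG-island-like region and no H3K27me3, which lies inside the interval. The FS2-AEBP2 peak nearest to a start of the set was 21175 bp away, at Mrpl53, and none of the 77 genes had one within 10 kb, where 8.45% of all genes did. At Mrps15 the nearest tagged peak was 239677 bp away and at Mrpl32 it was 2506800 bp away, although endogenous AEBP2 was called at both in each replicate. Tag, protocol and possibly the plasmid and the cell line differ together between the tagged and the endogenous samples and cannot be told apart.

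**Figure D3:**
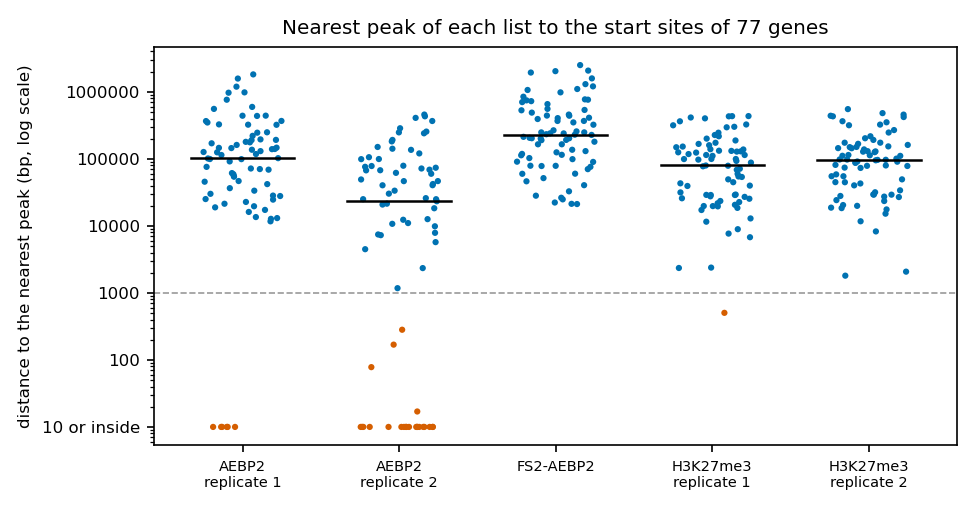
Distance from the start sites of the 77 genes to the nearest peak of each list (bp, log scale; distances under 10 bp and starts inside a peak are drawn at 10). Points are genes, orange where the distance is at most 1000 bp (dashed line), and black lines are medians. Orange points are seen in both AEBP2 lists and once in H3K27me3 replicate 1, and the FS2-AEBP2 points start at 21175 bp.

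Of the 77 genes, 52 had no peak in any of the 5 lists. The share of all promoters without a peak in any list was not counted. H3K27me3 was called in either replicate at 19.8% of all 22367 promoters. Of the 17935 promoters without it, 14.3% had AEBP2 in either replicate and 0.859% had FS2-AEBP2. Most promoters thus had no peak in any list, and the 52 are not read as a result about these genes as such. For the large subunit these were Mrpl1, Mrpl2, Mrpl3, Mrpl4, Mrpl10, Mrpl11, Mrpl13, Mrpl15, Mrpl16, Mrpl18, Mrpl19, Mrpl21, Mrpl22, Mrpl24, Mrpl27, Mrpl30, Mrpl33, Mrpl34, Mrpl35, Mrpl36, Mrpl37, Mrpl38, Mrpl41, Mrpl43, Mrpl46, Mrpl47, Mrpl48, Mrpl50, Mrpl51, Mrpl52, Mrpl53 and Mrpl55. For the small subunit they were Mrps2, Mrps7, Mrps9, Mrps10, Mrps11, Mrps12, Mrps14, Mrps16, Mrps18a, Mrps18c, Mrps21, Mrps22, Mrps24, Mrps25, Mrps26, Mrps28, Mrps31, Mrps33, Mrps36 and Mrps36-ps1. The nearest to being called was Mrpl34, with a replicate 2 peak 1176 bp from its start, followed by Mrpl36 at 2344 bp, Mrpl52 at 4487 bp, Mrpl55 at 5720 bp and Mrpl38 at 7266 bp. Over all 77 genes, including those with a peak over the start, the median distance to the nearest peak of replicate 2 was 23295 bp. For all genes it was 64826.5 bp. The genes behind these medians were not matched for CpG-island-like regions, so the gap is not a result about the 77 genes as such.

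AEBP2 peaks were found at genes of both subunits and at genes old and new to the mitochondrial ribosome. AEBP2 replicate 2 was called at 13 of 47 large-subunit genes (27.7%, 16.9 to 41.8%) and at 10 of 30 small-subunit genes (33.3%, 19.2 to 51.2%). It was called at 11 of 44 genes numbered as having a bacterial counterpart (25.0%, 14.6 to 39.4%) and at 12 of 33 mitochondria-specific genes (36.4%, 22.2 to 53.4%). In replicate 1 the counts were 4 and 2 for the subunits, and 4 and 2 for the origins. Every interval overlaps that of its counterpart, which does not show that the groups are alike.

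Most of the promoters had a CpG-island-like region, but their median GC content was near that of all promoters. The median GC content in the 500 bp on either side of the start was 55.7% (41.2 to 71.9%), beside 54.7% for all promoters and 59.5% for those with a CpG-island-like region and no H3K27me3. The median observed to expected CpG ratio was 0.721, beside 0.549 and 0.765. All 23 genes with AEBP2 replicate 2 had a CpG-island-like region, as did 48 of the 53 without an AEBP2 peak. The 5 genes lacking one were Mrpl24, Mrpl33, Mrpl35, Mrps24 and Mrps36-ps1. With AEBP2 replicate 2 the median GC content was 57.4% and the median CpG ratio 0.774, and without AEBP2 they were 54.7% and 0.696, with ranges that overlapped (49.0 to 71.9% GC with, 41.2 to 70.7% without). Over all promoters with AEBP2 replicate 2 and no H3K27me3 the medians were 61% and 0.811.

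**Figure D4:**
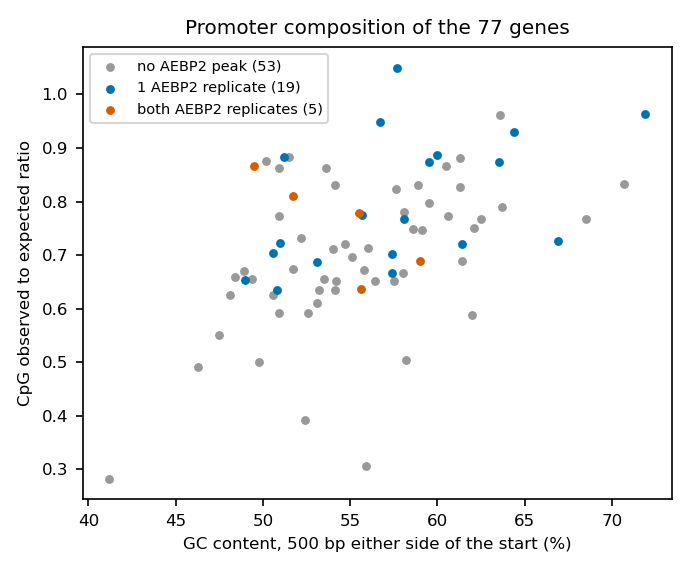
GC content (%, horizontal axis) and observed to expected CpG ratio (vertical axis) in the 500 bp on either side of the start site, 1 point for each of the 77 genes. The 53 genes without an AEBP2 peak reach down to 41.2% GC and a ratio of 0.283, and the genes with a peak in 1 (19) or both (5) replicates lie within the upper part of the same cloud, at ratios of 0.634 and above.

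Exact words of known promoter factors were searched on both strands from 250 bases before to 50 bases after the start. The nuclear respiratory factors are known regulators of nuclear genes for mitochondria, and the words included CCGGAAG, the core letters of the sites of GABP (also called NRF2) and other ETS factors, and GCGCATGC, the core letters of the palindromic NRF1 site. CCGGAAG was found in 27 of the 77 promoters (35.1%), beside 10.8% of all promoters and 21.8% of those with a CpG-island-like region and no H3K27me3. It was found with and without AEBP2, in 7 of the 23 genes with AEBP2 replicate 2 (30.4%) and 20 of the 53 without AEBP2 (37.7%). AAGATGGCG, the core of the YY1 site, was present in 7 of the 77 (9.09%), beside 1.84% and 3.91%, and in 2 of the 23 and 5 of the 53.

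GCGCATGC was found in 7 promoters (9.09%), beside 3.3% of all and 6.66% of the CpG-rich ones without H3K27me3. With AEBP2 replicate 2 it was in 4 of 23 promoters (17.4%), those of Mrpl32, Mrpl9, Mrpl17 and Mrps18b, and without AEBP2 in 3 of 53 (5.66%), those of Mrpl10, Mrpl22 and Mrps28. Mrpl32 and Mrpl9 are also 2 of the 5 genes called in both replicates. Over all promoters the word was in 14% of those with AEBP2 replicate 2 and no H3K27me3, in 19% of those with both replicates and no H3K27me3, and in 2.28% of those with AEBP2 replicate 2 and H3K27me3. The 4 genes are few, and their share stands near that of the other AEBP2 promoters without H3K27me3.

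The printed promoters show where these words lie. That of Mrpl32 holds 4 matches to GCGCATGC, of which 2 overlap on opposite strands in the run GCGCATGCGC, and their midpoints are 18.5 to 83.5 bp upstream of the start. The closest was 2.5 bp from the centre of the replicate 1 peak, but all 4 were 125.5 to 190.5 bp from that of replicate 2. In Mrpl9 the same overlapping pair makes up the last bases before the start, 33.0 and 35.0 bp from the centre of the replicate 1 peak and 60.5 and 62.5 bp from that of replicate 2. The stretches of Mrps15, Mrps23 and Mrpl45 hold no exact match to GCGCATGC. Of these, Mrps15 has a match to GGGCGGG, the letters of the SP1 site, on the minus strand, and Mrps23 has CCGGAAG 18.0 bp after its start, outside the printed bases. A match is a run of letters and not a measured binding site. Only exact words were searched, and near matches were not counted in any gene. The Mrpl45 stretch, for example, holds gcgcacgc, which differs from GCGCATGC in 1 letter.

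The promoters of Mrpl22 and Mrpl43 had these words but no AEBP2 peak, and are printed for contrast. They were chosen after the words had been seen.
Mrpl22, chr11:57985043-57985162, plus strand: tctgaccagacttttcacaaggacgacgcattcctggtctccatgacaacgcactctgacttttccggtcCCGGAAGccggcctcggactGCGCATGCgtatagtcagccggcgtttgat
Mrpl43, chr19:45080933-45081047, minus strand: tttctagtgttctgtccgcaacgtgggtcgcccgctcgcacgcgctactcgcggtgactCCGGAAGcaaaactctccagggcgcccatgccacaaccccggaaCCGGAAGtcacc
Mrpl22 carries both CCGGAAG and GCGCATGC, yet its nearest AEBP2 peak was 73734 bp away in replicate 2 and 130445 bp away in replicate 1. Mrpl43 carries CCGGAAG at 2 places, and its nearest AEBP2 peaks were 11015 bp and 70387 bp away.

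The remaining words were found near or below their shares in the CpG-rich promoters without H3K27me3. GGGCGGG was found in 28 of the 77 (36.4%), beside 31.8% of all promoters and 50.3% of the CpG-rich ones without H3K27me3. With AEBP2 replicate 2 it was in 12 of 23 (52.2%) and without AEBP2 in 16 of 53 (30.2%), a difference that was not tested. Over all promoters with AEBP2 replicate 2 and no H3K27me3 it was in 50.6%, near the 50.3% of the CpG-rich ones. For the other words the share of all promoters is given first and that of the CpG-rich promoters without H3K27me3 second. CCAAT, the letters of the NFY site, was in 30 (39.0%, against 37.9% and 39.7%). TATAAA, the core of the box bound by TBP, was in 5 (6.49%, against 13.4% and 5.95%). CTCGCGAG was in 2 promoters (2.6%, against 1.18% and 2.48%), and TGACGTCA, the cyclic AMP response element, in 2 (2.6%, against 2.32% and 4.01%). CACGTGAC, an E-box, was in 3 (3.9%, against 2.56% and 4.57%), and ACTACAATT in none (against 0.469% and 0.762%).

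Other genes of mitochondrial translation were looked up in the same way. Lists of ribosomal proteins named otherwise, translation factors, mitochondrial aminoacyl-tRNA synthetases, and ribosome assembly and rRNA modification factors held 61 gene records together. AEBP2 replicate 2 was called at 18 of them (29.5%), beside 29.9% of the mitochondrial ribosomal protein genes and 22.3% of all promoters. Replicate 1 was called at 1 (1.64%), beside 7.79% and 9.08%, and FS2-AEBP2 and H3K27me3 at none. Over all promoters FS2-AEBP2 was called at 6.53% and H3K27me3 at 19.8%. These differences were not tested. Among the 7 ribosomal proteins named otherwise, those with replicate 2 were Dap3 and Mrp63. Among the 15 translation factors they were Gfm1 (an elongation factor), Mtfmt (which formylates the initiator tRNA), Oxa1l (the insertase for newly made inner membrane proteins) and Rmnd1.

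Of the 17 synthetases, 7 had a peak of replicate 2 (41.2%, 21.6 to 64.0%), namely Aars2, Fars2, Mars2, Tars2, Vars2, Wars2 and Yars2. Yars2 was the 1 gene of these lists with a peak in both replicates. Of the 22 assembly and modification gene records, which count Nsun4 at 2 starts, 5 had a peak of replicate 2 (22.7%, 10.1 to 43.4%). These were Dhx30, Mpv17l2, Mterfd1, Mtg1 and Rpusd4. The shares of all these lists overlap in their intervals with the 29.9% of the mitochondrial ribosomal protein genes.

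The cytosolic ribosomal protein genes and the nuclear genes of oxidative phosphorylation, which encode the partners of the proteins that mitochondrial ribosomes make, were set beside them. AEBP2 replicate 2 was called at 35 of 87 cytosolic ribosomal protein genes (40.2%, 30.6 to 50.7%) and 26 of 88 oxidative phosphorylation genes (29.5%, 21 to 39.8%). Over all promoters the share was 22.3%. Replicate 1 was called at 12.6 and 14.8% of these lists, beside 7.79% of the mitochondrial ribosomal protein genes and 9.08% of all promoters. Both replicates were called at 9 and 12 genes of these lists (10.3 and 13.6%), beside 6.49% of the mitochondrial ribosomal protein genes and 8.44% of all promoters. FS2-AEBP2 was called at 12 cytosolic ribosomal protein genes (13.8%, 8.07 to 22.6%) and 1 oxidative phosphorylation gene (1.14%), and at none of the 77. Its share over all promoters was 6.53%. The interval for the cytosolic genes does not overlap that of the mitochondrial ones, which ends at 4.75%, but the difference was not tested. H3K27me3 was called at 1 and 3 genes of these lists (1.15 and 3.41%), beside 19.8% of all promoters. The peak at Mrpl49 and Fau is counted both for the mitochondrial and the cytosolic ribosome.

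**Figure D5:**
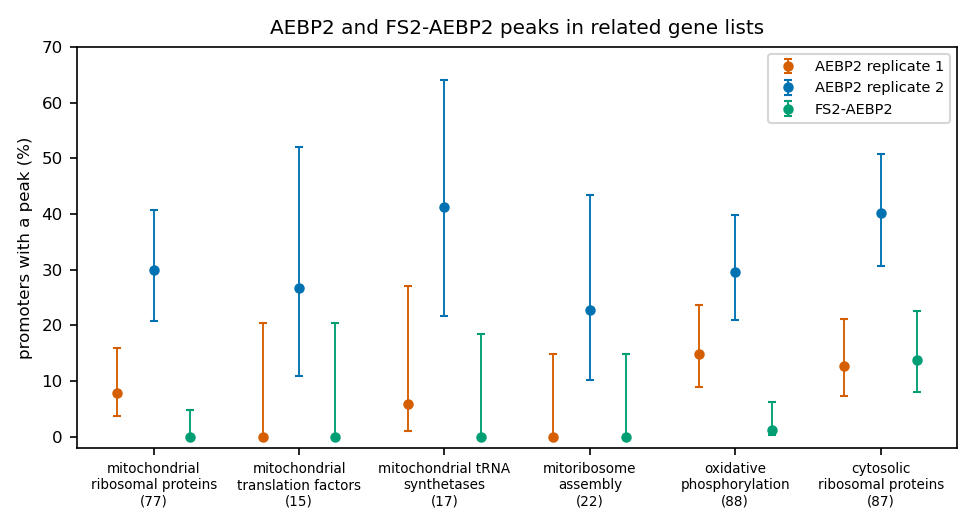
Share of promoters with a peak of AEBP2 replicate 1, AEBP2 replicate 2 or FS2-AEBP2 (%, vertical axis) in the 77 genes and in 5 related gene lists, with the number of gene records in brackets. Points are shares and lines their 95% Wilson intervals. The AEBP2 replicate 2 shares run from 22.7% to 41.2% with overlapping intervals, and FS2-AEBP2 is at 13.8% for the cytosolic ribosomal proteins and at 0 for the mitochondrial ones.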

How the data were processed

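ChIP-seq peak lists of 5 wild-type mESC samples were analysed. Per the labels, the authors used Bowtie, SAMtools, Picard and MACS2 2.0.10.2 with build mm9, and called peaks in each sample. Thresholds and the control library are not given in the sources used here. The deposited lists give the start and end of each peak in bp and a whole-number score of the peak caller, whose scale is not stated. It was used only as a rank percentile within a list, with ties sharing their mean rank. Depth is unknown.

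Peaks on the 19 autosomes and the sex chromosomes were kept. This removed 2 of 2879 AEBP2 replicate 1 peaks and 13 of 9288 H3K27me3 replicate 2 peaks. Start sites were the 5′ ends of GENCODE vM1 genes, and sequence was read from the mm9 genome. CpG-island-like windows were taken every 10 bp. No test over samples was possible, so shares are given with 95% Wilson intervals. Overlap counting was tested on simulated data.

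The members, gene lists and words were chosen with earlier results of these data known. Genes named were those with a peak of both AEBP2 replicates, with an H3K27me3 or FS2-AEBP2 peak or with replicate 1 only, the 10 highest-scoring of AEBP2 replicate 2 and the 5 nearest to a peak without one. The other AEBP2 genes and the genes without a peak were named so that every member is accounted for. Of 25 assembly symbols 21 were found, as 22 gene records. Python 3.11.15, numpy 2.4.6, pandas 2.3.3, scipy 1.17.1 and matplotlib 3.10.9 were used.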

Additional observations from a re-analysis of the deposited data

How the results depend on the processing

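The FS2-AEBP2 share stayed at 0 in every alternative run, and promoter windows of 500 bp or 2.5 kb, the start of any transcript, joined peaks and leaving out genes with shared windows moved no AEBP2 share beyond its interval. The peaks are short, so a minimum length of 500 bp reduced the AEBP2 shares to 0.0% for replicate 1, 9.09% for replicate 2 (with or without asking for no H3K27me3) and 0.0% for both replicates (likewise). Keeping only peaks that scored no less than the list median gave 19.5% for replicate 2, also without H3K27me3. The shares of all promoters under the length and score filters were not counted. Across all promoter peaks without H3K27me3 the median length was 430 bp in replicate 1 and 525 bp in replicate 2. The lower shares under these filters are therefore not read as a result about the mitochondrial ribosomal protein genes as such. Either AEBP2 replicate gave 31.2% in place of the 6.49% for both, and leaving out each AEBP2 replicate gave 7.79 to 29.9%, the higher value without replicate 1. The H3K27me3 share rests on the single peak at Mrpl23. It was 0.0% with a window of 500 bp, with the start inside the peak, with both replicates required, and without H3K27me3 replicate 1, so that leaving out each replicate gave 0.0 to 1.3%. A window of 2.5 kb added Mrpl34 and Mrpl36 to AEBP2 replicate 2 (32.5%, against 23.4% of all promoters). It added Mrps23 and Mrpl34 to H3K27me3 (3.9%, against 21.7% of all promoters). With that window Mrps23 and Mrpl34 had both AEBP2 replicate 2 and H3K27me3. AEBP2 without H3K27me3 then stood at 23 genes for replicate 2 and at 4 for both replicates. Counting the start of any transcript added Mrps24 to AEBP2 replicate 2. No paired analysis was possible because the results come from no test over samples. What limits the shares is the unknown depth of the lists and the number of genes, and a peak under the threshold is not seen.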
